A study of Mus musculus with 3 samples.

Results

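Mast cells of mouse dorsal skin were chosen by the measured counts of 6 marker genes in 3 single-cell libraries. A cell was a member when it carried at least 1 UMI (a molecular tag that marks 1 captured transcript) of at least 3 of Cpa3, Kit, Mcpt4, Cma1, Tpsb2 and Ms4a2, when Cpa3 or Ms4a2 was among them, and when it carried 0 UMIs of the fibroblast gene Pdgfra and of the basal keratinocyte gene Krt5. Among 33627 retained cells, each with 200 or more genes and no more than 10% of its UMIs from mitochondrial genes, 408 were members. There were 49 in CON, 170 in UV and 189 in Rux. The rule uses measured counts, so the 6 markers, Pdgfra and Krt5 are given below as a description and support nothing.

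All mice were wild-type C57BL/6J animals labelled as female and 8 weeks old. That age is stated with their purchase, before the 12 weeks of irradiation, and the age at collection is not given. CON skin had no irradiation and received vehicle. UV skin received vehicle and UVA at 0.60 mW/cm2 with UVB at 3.5 mW/cm2, given on alternate days over 12 weeks, and Rux skin received the same irradiation with 1.5% ruxolitinib ointment, an inhibitor of the kinases JAK1 and JAK2. Skin was collected 24 h after the last exposure. Each condition is 1 library, the number of mice pooled in a library is not given in the sources used here, and condition, mouse and library preparation cannot be told apart. Hence no test and no p-value is given. The libraries held 165337289 UMIs in CON, 133972374 in UV and 131570327 in Rux. Between 28 and 50 cell barcodes were shared by any pair of libraries, and 0 of them belonged to members. The label female did not match the libraries: Xist, which marks the inactive X chromosome, had 0 UMIs in the mast cells of all 3, and the Y-linked Ddx3y had 37 UMIs in CON, 135 in UV and 194 in Rux.

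Mast cells are resident immune cells that live near vessels and nerves in the dermis. They store histamine, serotonin, heparin and proteases in granules, depend on the receptor Kit, and release the stores when IgE bound to its high-affinity receptor or a Mas-related receptor is engaged. Connective tissue mast cells, the kind in skin, carry chymases, tryptases and carboxypeptidase A together, whereas mucosal mast cells of the gut carry Mcpt1 and Mcpt2.

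Genes outside the rule went with the label. The high-affinity IgE receptor chain Fcer1a, the histamine-forming enzyme Hdc, the Mas-related receptors Mrgprb1 and Mrgprb2 and the serotonin-forming enzyme Tph1 were all found in members of each library. Ranked by the ratio of level in members over all other retained cells, taking the lowest of the 3 libraries and leaving out the genes of the rule, the first gene was Mrgprb2, the receptor for basic secretagogues, with a ratio of at least 753 in each library. Below it stood Mrgprx2 at 711, Fcer1a at 646, Mrgprb1 at 638 and the adenosine receptor Adora3 at 619. The steroid-forming enzyme Cyp11a1 stood at 522, Rgs13, an inhibitor of G-protein signals, at 496, and Il13 at 257. Mcpt1 and Mcpt9 had 0 UMIs in every library, and Mcpt2 had 0 in CON, 2 in UV and 2 in Rux, so the mucosal genes were at or near 0. The basophil protease Mcpt8 had 1, 3 and 1 UMIs in the same order. The eosinophil genes Epx, Prg2, Ccr3 and Siglecf and the T-cell genes Cd3e and Trac were at 0 in all 3 libraries.

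Members near the limit of the rule were few. In CON 0 members had 3 markers, 12 had 4, 30 had 5 and 7 had all 6. In UV the numbers were 3, 39, 77 and 51, and in Rux 1, 21, 97 and 70. The 4 members with 3 markers held little of them: in UV the 6 markers made up 865 of every 1000000 UMIs of such cells, against 48838 in members with 4 markers. Just outside, 38 cells carried 2 markers with Cpa3 or Ms4a2, and 15 of these had at least 2 of 8 further mast cell genes (Hdc, Srgn, Fcer1g, Mrgprb1, Il1rl1, Slc18a2, Gata2, Hpgds), against 70 of 72 members with 4 markers. Another 129 cells met the marker part of the rule and were left out for a UMI of Pdgfra or Krt5, 24 in CON, 51 in UV and 54 in Rux, and 118 of them carried at least 2 of the 8 genes. Doublets and mast cells with free RNA of other cells cannot be told apart among them.

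To show the DNA in front of genes that mark these cells most strongly, the 250 bases before the start of 5 of them are given 5′ to 3′ on the strand of the gene, from the RefSeq promoter table of build GRCm38.p6. Capitals mark hexamers that hold the letters read by GATA factors such as GATA2, a regulator of mast cell identity. The first hexamer searched was AGATAA. The second hexamer searched was TGATAA, which differs from it in the leading letter only. The third hexamer searched was AGATAG, which differs from it in the closing letter only. The fourth hexamer searched was TGATAG, which differs from it in both, and all of them were searched on either strand with overlaps allowed.
Cpa3: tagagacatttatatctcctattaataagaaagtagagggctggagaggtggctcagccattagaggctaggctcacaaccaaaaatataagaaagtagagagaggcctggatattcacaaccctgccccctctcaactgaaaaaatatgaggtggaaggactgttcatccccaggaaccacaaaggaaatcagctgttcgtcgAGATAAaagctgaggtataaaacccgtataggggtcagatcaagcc
Mcpt4: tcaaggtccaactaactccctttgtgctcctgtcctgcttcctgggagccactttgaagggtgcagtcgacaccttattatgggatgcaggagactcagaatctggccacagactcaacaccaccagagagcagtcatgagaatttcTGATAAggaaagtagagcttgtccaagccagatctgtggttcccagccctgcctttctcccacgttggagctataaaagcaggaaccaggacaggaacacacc
Cma1: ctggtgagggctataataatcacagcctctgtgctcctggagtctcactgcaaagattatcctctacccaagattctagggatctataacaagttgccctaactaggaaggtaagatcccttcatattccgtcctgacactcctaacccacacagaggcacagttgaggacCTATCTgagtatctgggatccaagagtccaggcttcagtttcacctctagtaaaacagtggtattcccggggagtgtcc
Mrgprb2: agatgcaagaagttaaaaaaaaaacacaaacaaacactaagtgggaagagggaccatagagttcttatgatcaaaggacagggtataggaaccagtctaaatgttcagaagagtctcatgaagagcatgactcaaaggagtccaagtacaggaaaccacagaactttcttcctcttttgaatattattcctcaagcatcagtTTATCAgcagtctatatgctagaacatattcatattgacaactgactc
Fcer1a: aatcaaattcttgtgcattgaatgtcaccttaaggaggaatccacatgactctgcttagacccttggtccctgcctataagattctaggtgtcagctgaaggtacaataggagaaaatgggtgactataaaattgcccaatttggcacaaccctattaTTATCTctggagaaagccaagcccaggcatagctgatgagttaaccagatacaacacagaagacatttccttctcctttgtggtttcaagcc

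The windows lie at chr3:20242182-20242431 (Cpa3), chr14:56062311-56062560 (Mcpt4), chr14:55944676-55944925 (Cma1), chr7:48558087-48558336 (Mrgprb2) and chr1:173227230-173227479 (Fcer1a), all on the minus strand. The match began 46 bases before the start of Cpa3, 103 before that of Mcpt4, 79 before that of Cma1, 48 before that of Mrgprb2 and 92 before that of Fcer1a. Of 12 mast cell genes looked for, 10 were in the table, and 9 of them held such a hexamer (Kit did not; of the 2 entries of Tpsg1, the first held 1). Of all 32851 windows of that length, 26.5% held one. E-box letters, which MITF and related factors read, were searched as CATGTG on either strand (its reverse complement is a match too) and, as the palindrome of the same family, as CACGTG. They were found in 1 of the 10, Fcer1a, against 17.6% of all windows. A match is a description of the letters and not a site in use. The table had no entry for Tpsb2 or Tpsab1.

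Mast cells made up 0.407% of retained cells in CON (95% Clopper-Pearson interval 0.301% to 0.537%), 1.50% in UV (1.28% to 1.74%) and 1.85% in Rux (1.60% to 2.13%). The share was lowest in CON, and its interval overlapped neither of the others. UV over CON the ratio of shares was 3.68 (2.66 to 5.16), and Rux over CON it was 4.55 (3.30 to 6.36). Rux over UV it was 1.24 (0.999 to 1.53), an interval that holds 1. These intervals cover counting error only.

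**Figure D1:**
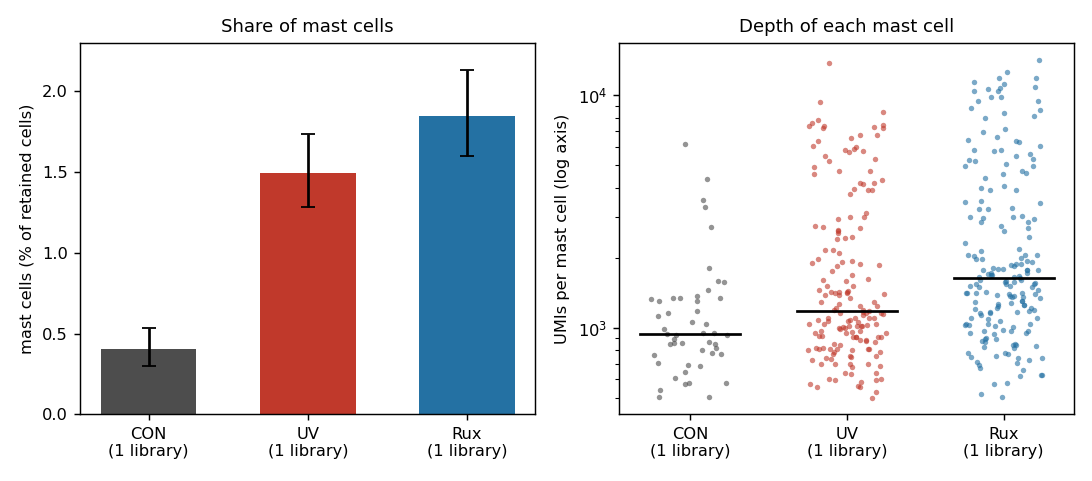
Left, share of mast cells among retained cells of each library in percent, with 95% Clopper-Pearson intervals. Right, UMIs of every mast cell on a log axis, with the median as a line: CON has the lowest share (0.407%) and the lowest median depth (938 UMIs).

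The order of the shares depended on the denominator for UV and Rux but not for CON. Per 100 macrophage-like cells there were 58.3 mast cells in CON, 236 in UV and 201 in Rux. Per 100 T-cell-like cells the numbers were 35.5, 147 and 99.5. Among cells with a UMI of the leukocyte gene Ptprc, 15 of 834 were members in CON (1.80%), 105 of 786 in UV (13.4%) and 119 of 1408 in Rux (8.45%), so Rux was the lower of the irradiated libraries on these counts and the higher over all cells. Of the mast cell transcripts summed over all retained cells, members or not, Fcer1a, Tpsab1 and Mrgprb2 were ordered as the shares and Kit was not. In every 1000000 UMIs of CON, UV and Rux, Fcer1a had 0.405, 3.78 and 7.97, Tpsab1 0.527, 2.76 and 5.68, Mrgprb2 0.245, 0.889 and 1.43, and Kit 22.58, 21.09 and 23.03. Members held 1.85%, 15.2% and 26.9% of the Kit UMIs. Members held 43.9% of all Fcer1a UMIs in CON, 65.5% in UV and 79.1% in Rux, and the rest lay in other retained cells. A larger number of mast cells and a larger yield of them from the tissue cannot be told apart.

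Members were shallow beside other cells. Their median was 938 UMIs in CON, 1183.5 in UV and 1633 in Rux, against 4859, 6730.5 and 8863.5 in macrophage-like cells. The lowest members had 501, 500 and 503 UMIs, next to the lowest depth of any barcode in the files (500), and the deepest had 6183, 13783 and 14217. The deepest member of UV met the rule with 3 markers only. Granule proteases took 0.0073% of its UMIs, against a median of 5.52% in UV members, so its label as a mast cell is in doubt. Members under 1000 UMIs numbered 28 of 49 in CON, 60 of 170 in UV and 38 of 189 in Rux. The summed member UMIs were 62764, 384675 and 559065, so CON values rest on the fewest UMIs and 3 UMIs in CON correspond to 47.8 in every 1000000. A deeper cell has more chances to show 3 markers and also to show a UMI of Pdgfra or Krt5, and the depth of members was in the same order as the shares. With every cell thinned to 500 UMIs the rule gave 0.523%, 1.63% and 2.04%, and thinned to 2000 UMIs, with shallower cells left out, 0.0659%, 0.632% and 0.936%. CON stayed lowest at each depth.

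Levels below are UMIs of the members of a library summed and given as counts per 1000000 of those UMIs (CPM), with exact 95% Poisson intervals for sums. Ratios between libraries are log2 ratios of CPM with 0.5 UMI added to each sum and exact conditional 95% intervals. A level compares the same gene between libraries; levels of different genes are not compared. Of 3131 genes whose mean CPM was 50 or more, on 20 or more UMIs in both libraries together, 7.51% were at least 2-fold higher in UV than in CON and 9.55% were 2-fold lower. For Rux over UV the shares of 3161 genes were 1.17% and 2.09%, and for Rux over CON those of 3191 genes were 7.68% and 12.8%. The 37 genes higher and 66 lower in Rux than in UV became 72 and 106 with equal weight per cell, 72 were higher without the exclusion of Pdgfra and Krt5, and 39 were lower with at least 4 markers. With median-of-ratios scaling in place of totals, which moves every ratio over CON up by 0.20 on the log2 scale, 379 genes were higher and 161 lower in UV than in CON, against 235 and 299 with totals. For Rux over CON the counts were 376 and 250, against 245 and 408. Ratios and list medians over CON that lie between −0.20 and 0 with totals, among them those of all genes, of granule stores and of surface receptors for UV over CON, are above 0 with that scaling.

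Granule proteases cleave matrix, peptides and venoms after release. Of 12 in the list, 8 reached the minimum used for lists in UV and CON, and Tpsb2 was lower in CON than in the irradiated libraries. Together the 12 genes of the list took 4.50% of member UMIs in CON, 5.61% in UV and 6.11% in Rux. The chymase Mcpt4 stood at 22146 CPM in CON, 24392 in UV and 25732 in Rux. The chymase Cma1 stood at 9751, 11230 and 12659 CPM, and carboxypeptidase A3 (Cpa3) at 7855, 9959 and 10169. Each of these 3 was lowest in CON and highest in Rux, by less than 2-fold, though for Cpa3 the interval of Rux over UV held 0. With equal weight per cell the Mcpt4 ratio was −0.079 for UV over CON and −0.0083 for Rux over CON, so CON was then highest. Without the exclusion of Pdgfra and Krt5 the log2 ratio for Rux over UV was −0.23 for Mcpt4, −0.077 for Cma1 and −0.21 for Cpa3, so UV was then the higher. The tryptase Tpsb2 (chr17:25366305-25369098 in GENCODE M21, build GRCm38) stood at 3919 CPM in CON, 9535 in UV and 11346 in Rux, with a log2 ratio of 1.28 (1.10 to 1.47) for UV over CON and 0.25 (0.19 to 0.31) for Rux over UV. Tpsb2 was found in 44 of 49 members of CON, 169 of 170 of UV and 187 of 189 of Rux, and its median was 4, 11 and 15 UMIs per member. As a gene of the rule its level is a description of the cells chosen, and without the exclusion of Pdgfra and Krt5 its ratio for Rux over UV was −0.014.

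Of its neighbours on chromosome 17, Tpsg1 did not share that order, and Tpsab1 shared it only in that Rux was highest. For Tpsab1 the ratio of UV over CON ranged from −0.30 to 0.35 over all alternatives. The tryptase Tpsg1 (chr17:25369273-25374442), which stays on the membrane, had 39 UMIs in CON, 68 in UV and 113 in Rux, or 621, 177 and 202 CPM. CON was the highest library here, with a log2 ratio of −1.82 (−2.40 to −1.21) for UV over CON and 0.19 (−0.25 to 0.65) for Rux over UV. The tryptase Tpsab1 (chr17:25343245-25345562) had 574, 577 and 934 CPM, so that Rux was highest, at 0.69 (0.46 to 0.93) over UV. At an equal depth of 500 UMIs a UMI of Tpsg1 was expected in 28.1% of members in CON, 7.70% in UV and 11.0% in Rux (49.0%, 23.5% and 34.9% without thinning), and in 0% of macrophage-like cells of each library. The last 400 bases of Tpsb2 and Tpsab1, where 3′ libraries read, are 67.5% identical, and those of Tpsb2 and Tpsg1 59.8%. Of the 8 measured genes of the list, 1 was 2-fold higher and 1 lower in UV than in CON, with a median of 0.17, where all 5147 genes at the same minimum (20 CPM and 10 UMIs) had a median of −0.15 with 9.6% higher and 14% lower.

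**Figure D2:**
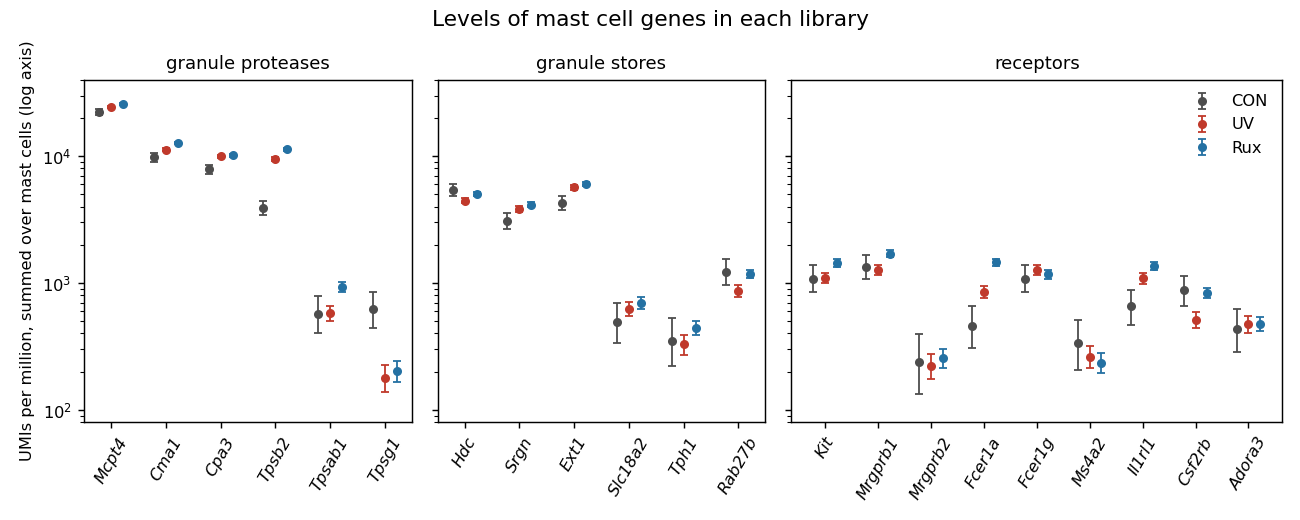
Levels of genes in mast cells as CPM of summed UMIs on a log axis, with exact 95% Poisson intervals, 1 point per library. Tpsb2, Fcer1a and Il1rl1 are lowest in CON, and Tpsg1 is highest in CON (621 against 177 and 202).

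Among genes that make and hold the granule contents, histidine decarboxylase (Hdc), which forms histamine, stood at 5369 CPM in CON, 4440 in UV and 5001 in Rux, and the interval of UV over CON (−0.28, −0.44 to −0.10) lay below 0. Serglycin (Srgn), the core that carries heparin, stood at 3107, 3834 and 4137 CPM, and Ext1, which builds the heparan chain, at 4286, 5683 and 5992. Both were lowest in CON. The heparan sulfotransferase Hs3st1 had 239, 380 and 558 CPM, with 1.18 on the log2 scale for Rux over CON. The amine transporter Slc18a2 had 494, 627 and 696 CPM, and Tph1 351, 328 and 440. Rab27b, which brings granules to the membrane, had 1227, 866 and 1173 CPM, lowest in UV at −0.51 (−0.86 to −0.13) over CON. Of 17 measured genes of the list 0 were 2-fold higher and 2 lower in UV than in CON (median −0.12), beside 9.6% and 14% of all genes at that minimum. The 2 were Vamp8 (10, 29 and 69 UMIs, −1.13) and Stxbp2 (3, 8 and 26 UMIs, −1.34), which serve granule fusion, and both intervals held 0. Of 18 for Rux over UV 2 were higher and 0 lower (median 0.24), beside 2.84% and 5.19%, and these were Rab27a (1.37, 0.13 to 3.04) and Stxbp2 (1.10), the latter with an interval that held 0. For 7 of the 18 the interval lay above 0 and for 0 below it, beside 329 and 428 of all 5490 genes. The median half-width of these intervals was 0.38 in the list and 0.83 over all genes, so the counts are not alike. Without the exclusion of Pdgfra and Krt5 the list median was −0.012 for Rux over UV and −0.087 for Rux over CON. For Rux over CON 1 of 18 was higher, Hs3st1, and 0 were lower, beside 8.42% and 20%.

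The chains of the IgE receptor were measured in each library. Its ligand-binding chain Fcer1a (chr1:173221284-173227214) had 29 UMIs in CON, 326 in UV and 813 in Rux, or 462, 847 and 1454 CPM. The level was ordered CON, UV, Rux and both intervals lay above 0, at 0.85 (0.33 to 1.48) for UV over CON and 0.78 (0.59 to 0.97) for Rux over UV. The signalling chain Fcer1g had 1083, 1274 and 1172 CPM, and the signal-amplifying chain Ms4a2, a gene of the rule, 335, 263 and 234. For Ms4a2 the interval held 0 in each comparison, and its ratio of UV over CON ranged from −0.68 to 0.56 over all alternatives. At 500 UMIs per cell Fcer1a was expected in 20.5%, 30.3% and 45.3% of members (38.8%, 58.8% and 81.5% unthinned) and in 0% of macrophage-like cells, whose median depth was at least 4859 UMIs. Basophils carry Fcer1a too, and their protease Mcpt8 was at 1 to 3 UMIs.

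Behind the receptor stand kinases and adaptors that carry its signal. The kinase Syk had 175, 268 and 351 CPM in CON, UV and Rux, the adaptor Lcp2 255, 348 and 483, and the adaptor Gab2 892, 1170 and 1288. All 3 were lowest in CON and highest in Rux, and the interval of UV over CON held 0 for each. For Gab2 the ratio of Rux over UV ranged from −0.23 to 0.21 over all alternatives. The phosphatase Inpp5d, which limits the response, had 303, 408 and 667 CPM, at 0.71 (0.44 to 0.99) for Rux over UV. The kinase Lyn (637, 710 and 823 CPM) and the adaptor Lat2 (813, 847 and 834) differed within their intervals. The adaptor Lat had 7, 17 and 32 UMIs, or 112, 44.2 and 57.2 CPM, highest in CON at −1.39 for UV over CON, with an interval that held 0 (−2.68 to 0.18). The IgE list had a median of 0.36 for UV over CON with 0 of 17 genes 2-fold higher and 2 lower, beside 9.6% and 14% of all genes. For Rux over UV it had 0.18 with 0 and 0 of 18, beside 2.84% and 5.19%, and for Rux over CON 0.30 with 4 and 1 of 17, beside 8.42% and 20%. Without the exclusion of Pdgfra and Krt5 the last 2 medians were −0.12 and 0.035.

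Among other receptors, Il1rl1 was higher and Csf2rb lower in UV than in CON. The IL-33 receptor Il1rl1 had 41, 419 and 759 UMIs, or 653, 1089 and 1358 CPM, with 0.72 (0.27 to 1.24) for UV over CON and 0.32 (0.14 to 0.49) for Rux over UV. Csf2rb, the shared signalling chain of the receptors for IL-3, IL-5 and GM-CSF, had 876, 510 and 834 CPM, lowest in UV at −0.79 (−1.22 to −0.32) over CON and 0.71 (0.47 to 0.96) for Rux over UV. Its copy Csf2rb2 had 574, 276 and 376 CPM, and the last 400 bases of both genes are 82.0% identical, so reads may be shared between them. Kit itself stood at 1083, 1094 and 1431 CPM, and without the exclusion of Pdgfra and Krt5 its ratio for Rux over CON was −0.20 in place of 0.39. Of the Mas-related receptors, Mrgprb1 had 1338, 1271 and 1701 CPM, Mrgprb2 239, 221 and 254, and Mrgprx2 223, 413 and 517. Without the exclusion of Pdgfra and Krt5 the Mrgprx2 ratio was −0.077 for UV over CON and −0.015 for Rux over CON, in place of 0.84 and 1.16, and that of Mrgprb1 for Rux over CON −0.030 in place of 0.34. The IL-7 receptor chain Il7r had 80, 42 and 138 CPM on 5, 16 and 77 UMIs. The adenosine receptor Adora3 stood at 430, 473 and 474 CPM, and differed within its interval. The surface receptor list had medians of −0.11, 0.20 and 0.12 for UV over CON, Rux over UV and Rux over CON, and the Kit list of −0.07, −0.18 and 0.00.

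Inhibitory receptors and lipid mediator genes were measured in part. The inhibitory receptor Cd200r1 had 2 UMIs in CON, 66 in UV and 68 in Rux, and its log2 ratio for UV over CON was 2.12 (0.52 to 5.50). Its activating relative Cd200r3 had 287, 330 and 374 CPM. The inhibitory receptors Lilrb4a (669, 702 and 673 CPM) and Lilr4b (685, 842 and 744) differed within their intervals, and as their transcripts are 96.5% identical their reads may be shared. The prostaglandin D synthase Hpgds had 590, 543 and 605 CPM. Ptgs2, the inducible cyclooxygenase, had 0, 29 and 23 UMIs, and Alox5ap, which hands arachidonate to 5-lipoxygenase, 0, 12 and 40. Taking CON at 3 UMIs, Ptgs2 was at least 1.58-fold higher in UV, and its exact interval, which also covers the counting error of UV, began at 0.27 on the log2 scale. Of the 7 measured inhibitory receptors 1 was 2-fold higher and 0 lower in UV than in CON (median 0.16), and of the 5 measured lipid genes 2 were higher and 0 lower (median 0.49), beside 9.6% and 14% of all genes. The lipid median was −0.067 in members of at least 1000 UMIs and 1.20 with equal weight per cell.

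Type 2 cytokines were found in every library. Il4 had 335, 309 and 408 CPM and Il13 191, 198 and 220, with intervals of UV over CON that held 0 for both. For Rux over UV the ratio of Il4 was 0.40 (0.073 to 0.73), and −0.22 without the exclusion of Pdgfra and Krt5. The chemokine Ccl7, which draws monocytes, stood at 5752, 3242 and 3821 CPM, highest in CON at −0.83 (−1.0 to −0.65) for UV over CON. Its neighbour Ccl2 had 2151, 1864 and 1442 CPM, lowest in Rux at −0.37 (−0.52 to −0.22) over UV. The macrophage factor Csf1 had 112, 211 and 301 CPM, and Tnf 16, 60 and 82 on 1, 23 and 46 UMIs. The interleukin Il6 had 19, 155 and 93 UMIs, or 303, 403 and 166 CPM, lowest in Rux at −1.27 (−1.66 to −0.90) over UV, with 61 of the UV UMIs in 1 cell. Without the deepest member of each library the Il6 ratio for Rux over UV was −0.57, and without members with markers of another lineage it was −0.44. With equal weight per cell the Il6 ratio for Rux over CON was 0.029 in place of −0.89, so Rux was then not the lowest.

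Some cytokine values rested on 1 cell. The neutrophil chemokine Cxcl1 had 11, 339 and 200 UMIs, of which 266 in UV and 87 in Rux lay in a single member each. Its log2 ratio of 2.27 for UV over CON became −0.04 without the deepest member of each library. The chemokine Ccl1 had 27, 14 and 13 UMIs, and 23 of those in CON lay in 1 member. Il1b had 0, 1 and 50 UMIs with 23 in 1 member of Rux, and Ccl3 1, 1 and 27 with 20 in 1. The cytokine list had medians of 0.11, 0.24 and 0.20 for the 3 comparisons, and 2 of 14 genes were 2-fold higher and 1 lower in UV than in CON, beside 9.6% and 14% of all genes. For Rux over UV 4 of 19 were higher (Il3, Il1b, Ccl3 and Ccl4) and 3 lower (Il6, Cxcl1 and Cxcl10), beside 2.84% and 5.19%. Of these, Il3 had 0, 5 and 29 UMIs, Ccl4 1, 3 and 22, with 14 in 1 member of Rux, and Cxcl10 0, 12 and 6. For Rux over CON 6 of 18 were higher and 1 lower, beside 8.42% and 20%.

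**Figure D3:**
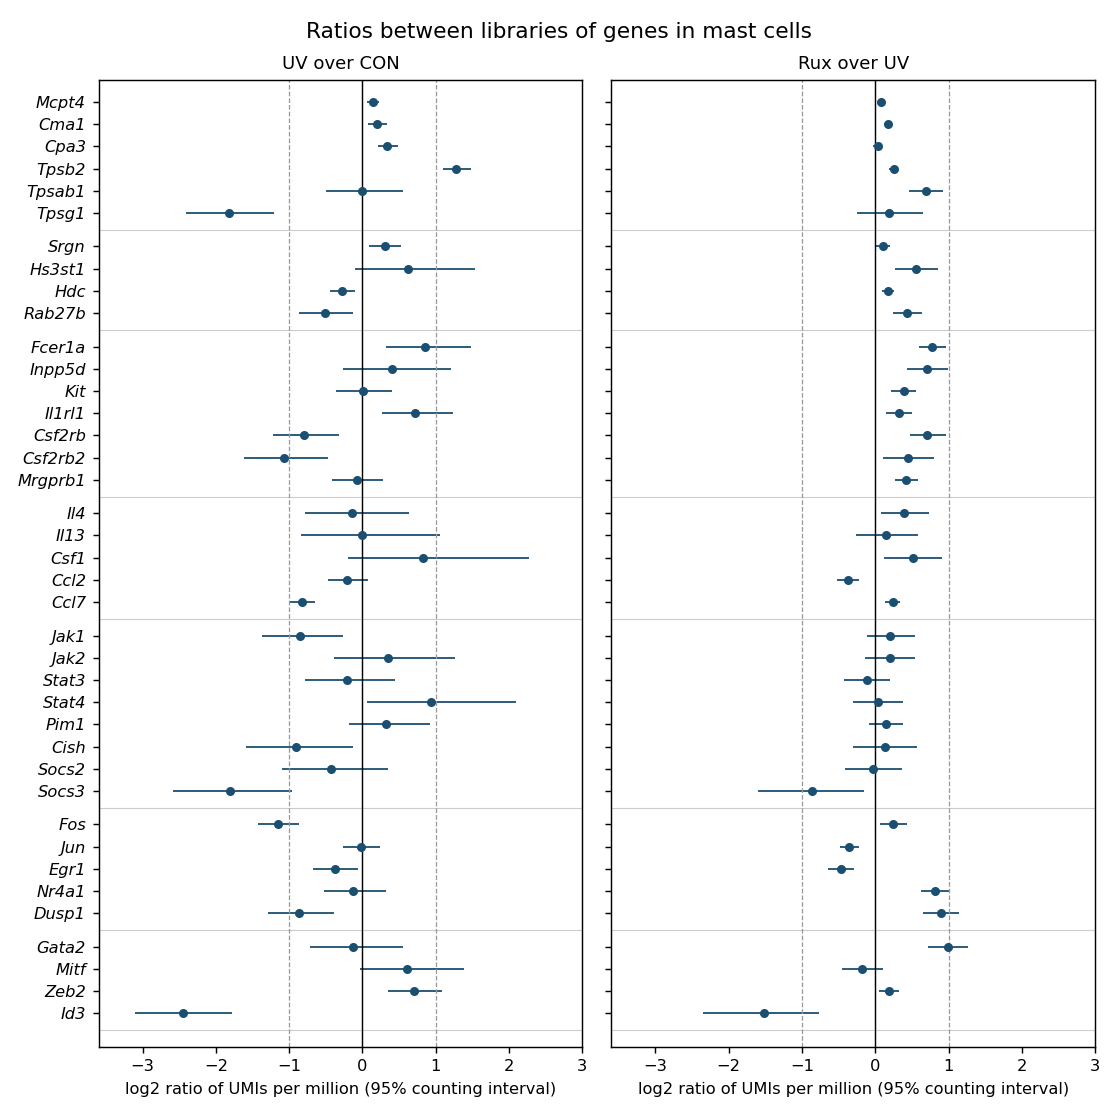
Log2 ratios of CPM in mast cells for UV over CON (left) and Rux over UV (right), with exact 95% conditional intervals and dashed lines at 2-fold. Tpsb2 (1.28) lies right of the line and Tpsg1, Socs3 and Id3 left of it on the left side, and on the right side Gata2 (0.99) lies next to it.

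Factors that hold mast cell identity were measured in each library, and Gata2 stood out in Rux. Gata2 (chr6:88193891-88207032), whose letters are marked in the promoters above, had 26, 148 and 427 UMIs, or 414, 385 and 764 CPM. It was highest in Rux, at 0.99 (0.72 to 1.27) over UV, and the interval of UV over CON held 0 (−0.13, −0.71 to 0.55). At 500 UMIs per cell it was expected in 17.9%, 15.1% and 29.1% of members (28.6%, 34.7% and 61.9% unthinned), against at most 0.0308% of macrophage-like cells. Mitf, a partner of Kit signalling, had 319, 497 and 438 CPM, and the repressor Zeb2 1115, 1822 and 2078. The list of factors had medians of 0.34, 0.16 and 0.43, with 0 of 12 genes past 2-fold in either direction for UV over CON and for Rux over UV, beside 9.6% and 14%, and 2.84% and 5.19%, of all genes. For Rux over CON 0 of 13 were higher and 1 lower, beside 8.42% and 20%.

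The JAK-STAT pathway, which ruxolitinib acts on, relays cytokine signals from receptor chains through JAK kinases to STAT factors, and SOCS genes and Cish are its targets and brakes. Jak1 had 590, 330 and 381 CPM, highest in CON at −0.85 (−1.37 to −0.27) for UV over CON. Jak2 had 239, 312 and 358 CPM and Stat3 446, 390 and 360, both within their intervals between libraries. Stat4 had 159, 317 and 326 CPM, with 0.93 (0.07 to 2.09) for UV over CON. Between UV and Rux these 4 differed within their intervals. The targets did not share 1 order. Socs3 (chr11:117966079-117970047) had 22 UMIs in CON, 39 in UV and 31 in Rux, or 351, 101 and 55.4 CPM, at −1.80 (−2.58 to −0.97) for UV over CON and −0.87 (−1.60 to −0.15) for Rux over UV. With equal weight per cell the Socs3 ratio for Rux over UV was 0.16, and without the exclusion of Pdgfra and Krt5 that for UV over CON was −0.43. Cish had 351, 190 and 207 CPM and Socs2 335, 252 and 247, each with Rux over UV inside the interval (0.13 and −0.03). Pim1, a kinase made in response to STAT5, had 510, 647 and 715 CPM. Of 28 measured genes of the list, 1 was 2-fold higher and 5 were lower in UV than in CON (median −0.42), beside 9.6% and 14% of all genes. For Rux over UV 1 and 1 of 28 were (median 0.16, or −0.20 without the exclusion of Pdgfra and Krt5), beside 2.84% and 5.19%. For Rux over CON 1 of 30 was higher and 7 were lower (median −0.35), beside 8.42% and 20% of all genes at that minimum and a median of −0.24.

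Interferon-stimulated genes were sparse. Isg15 had 25, 18 and 72 UMIs, or 398, 46.8 and 129 CPM, lowest in UV at −3.08 (−4.05 to −2.16) over CON and 1.43 (0.70 to 2.29) for Rux over UV. Ifitm3, a barrier to viral entry, had 398, 185 and 76.9 CPM, in the order CON, UV, Rux. Irf1 had 9, 14 and 12 UMIs. Only 9 of 20 genes of the list reached the minimum, with medians of −0.69, 0.18 and −0.62. Without the exclusion of Pdgfra and Krt5 the medians for UV over CON and Rux over UV were 0.054 and −0.50.

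Immediate-early genes, which are switched on within minutes by receptor signals and also by tissue dissociation, were split. Fos had 2231, 1006 and 1191 CPM, highest in CON at −1.15 (−1.43 to −0.86) for UV over CON. Jun had 2422, 2402 and 1876 CPM and Egr1 1721, 1328 and 961, and both were lowest in Rux, where without the exclusion of Pdgfra and Krt5 the ratios for Rux over UV were 0.17 and 0.0064. The Jun ratio for Rux over UV was also 0.17 with equal weight per cell, so Rux was then not the lowest. Nr4a1, induced by receptor engagement, had 892, 824 and 1451 CPM and Nr4a2 749, 575 and 1011, so that Rux was highest at 0.81 (0.63 to 1.01) and 0.81 (0.59 to 1.05) over UV. For Nr4a2 the ratio of Rux over CON, 0.42, was −0.24 without the exclusion of Pdgfra and Krt5 and −0.042 with equal weight per cell. CON was then the higher in both. The phosphatase Dusp1 had 876, 486 and 905 CPM, lowest in UV, with 0.89 (0.65 to 1.15) for Rux over UV. Of 23 genes, 0 were 2-fold higher and 3 lower in UV than in CON (median −0.20), beside 9.6% and 14% of all genes, and 0 and 0 for Rux over UV (median 0.01), beside 2.84% and 5.19%. The part of dissociation was not tested.

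**Figure D4:**
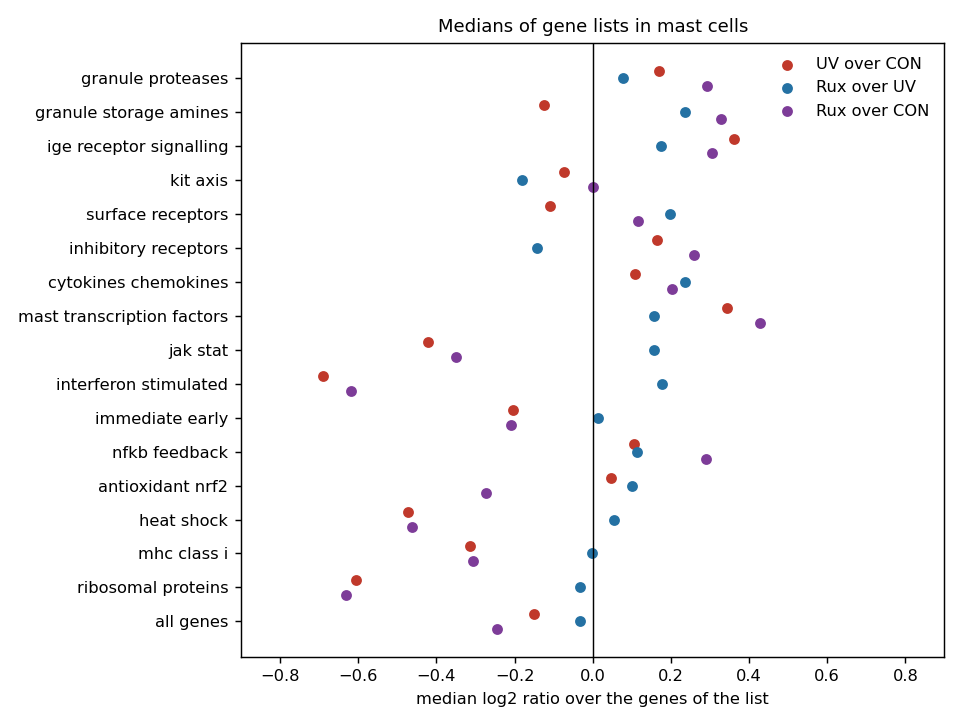
Median log2 ratio over the measured genes of 15 fixed lists, of ribosomal protein genes and of all genes, for the 3 comparisons in mast cells. Ribosomal protein genes lie near −0.6 in both comparisons with CON and near 0 for Rux over UV. The IgE list lies right of all genes in each. So do the lists of granule proteases, granule stores, surface receptors, cytokines, mast cell factors and NF-kB.

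Of the remaining lists, the NF-kB list had medians of 0.11, 0.11 and 0.29, and its factor Nfkb1 had 1561, 2441 and 2542 CPM. The antioxidant list had medians of 0.05, 0.10 and −0.27, with the ferritin chain Fth1 at 6548, 3660 and 4237 CPM, the metallothionein Mt1 at 1067, 1305 and 1901, and the peroxiredoxin Prdx1 at 462, 190 and 200. The heat shock list had medians of −0.47, 0.05 and −0.46, where the chaperone Hsp90aa1 had 1131, 795 and 826 CPM. Without the exclusion of Pdgfra and Krt5 its medians were 0.077 for UV over CON and 0.48 for Rux over CON, both above 0. The Mt1 ratio for Rux over UV, 0.54, was then −0.51. The MHC class I list had −0.31, −0.00 and −0.31, with B2m at 1593, 1269 and 1640 CPM. The adhesion list had 0.36, −0.01 and 0.16, where the hyaluronan receptor Cd44 had 1896, 2654 and 2518 CPM. The glucocorticoid and clock list had −0.57, 0.05 and −0.24. The p53 list had −1.38, 0.18 and −1.08 on 6, 5 and 8 genes, with the arrest gene Cdkn1a at 717, 520 and 590 CPM. Of the division genes, Mki67 had 1, 2 and 5 UMIs and Top2a 0, 3 and 9, both near 0. Pcna was found in 34.7%, 32.4% and 32.8% of members without thinning. At 500 UMIs per cell Pcna was expected in 16.5%, 11.5% and 9.19% of members, highest in CON. Over all alternatives its log2 ratio ranged from −1.07 to −0.30 for UV over CON and from −0.97 to −0.59 for Rux over CON. Only 2 genes of the cell cycle list reached the minimum (medians −1.07, 0.21 and −0.87). With cells of Pdgfra or Krt5 let in, the medians for UV over CON and Rux over CON were 0.59 and 0.46 for the cell cycle list and −0.13 and −0.22 for the p53 list.

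Ribosomal protein genes, a list added after the others, had a median of −0.61 for UV over CON, with 73 of 74 genes below 0, beside 2902 of all 5147 genes. Their median for Rux over CON was −0.63, with 72 of 74 below 0, beside 3249 of 5378. For Rux over UV the median was −0.03, with 42 of 74 below 0, beside 2908 of 5490. They made up 6.57% of member UMIs in CON, 4.37% in UV and 4.32% in Rux, against 15.5%, 14.3% and 13.8% in all other cells. The same genes had medians of 0.49, 0.20 and 0.03 for UV over CON in macrophage-like, T-cell-like and fibroblast-like cells, none of which lay below 0. When cells with Pdgfra or Krt5 were let in, the median for Rux over CON was 0.10.

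Among 1573 genes whose mean CPM in UV and CON was 100 or more, on 50 or more UMIs, the highest log2 ratios for UV over CON after Rgs5 were those of Hpcal1, a calcium sensor (1, 89 and 157 UMIs, 3.28, 1.34 to 9.18), Edil3, an integrin ligand (3, 164 and 220, 2.94, 1.58 to 5.45), and Creb3l2, a factor of the secretory pathway (3, 106 and 161, 2.31, 0.94 to 4.83). Rbm5, Arhgap6, Cd200r1, Tnik and Galc also stood between 2.10 and 2.24, each on 2 to 4 UMIs in CON. In Edil3 the UMIs were spread over 48 members of UV and 51 of Rux. The 81 UV UMIs of the pericyte gene Rgs5 lay almost all in 1 member (78). The lowest ratios were those of Id3, an inhibitor of bHLH factors (39, 44 and 22 UMIs, 15 of the 39 in 1 member, −2.44), the muscle gene Tagln, whose 21 UMIs in CON and 31 in UV each lay in 1 member, the proton pump subunit Atp6v0d2 (20, 30 and 86, −2.04) and the phosphodiesterase Pde4b (20, 30 and 27, −2.04). In CON 8 of the 20 UMIs of Atp6v0d2 and 10 of the 20 of Pde4b lay in 1 member each. For Pde4b 12 of the 30 UV UMIs also lay in 1 member. Srsf2, Tuba1b, Tpsg1, Socs3, Snrpg and Cebpb followed, between −1.97 and −1.67. When cells with Pdgfra or Krt5 were let in, the ratio of Id3 was −0.41 and that of Pde4b 0.28, and the ratio was 0.12 for Edil3, 0.27 for Arhgap6, 0.36 for Galc, 0.73 for Tnik, 1.69 for Creb3l2 and 1.78 for Hpcal1.

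Rux over UV, the highest ratios among 1778 genes were those of the haemoglobin genes Hba-a2, Hba-a1 and Hbb-bs, of which 132, 103 and 106 UMIs lay in 1 member of Rux. The next were the endosomal GTPase Rab4a (24 and 96 UMIs, 1.44), Spty2d1 (55 and 190, 1.24), Calca, which encodes calcitonin and CGRP (39 and 129, 1.17), Slc41a3 (1.07), Vegfc (1.01) and Gata2 (0.99). The lowest after Rgs5 were Procr (69 of 89 UV UMIs in 1 member, −3.27), Gm13889 (−2.18), Gm47283 (−1.91), Cald1 (−1.81), the glycosyltransferase Pomgnt1 (113 and 49 UMIs, −1.74), Olfr1033, Igfbp7, mt-Nd4l and Cxcl1. In Gm13889 56 of 98, in Cald1 44 of 61, in Olfr1033 43 of 66 and in Igfbp7 29 of 57 UV UMIs lay in 1 member. The ratio of Gm13889 was −0.27 with equal weight per cell, and that of Igfbp7 −0.24 with at least 4 markers. The last 400 bases of Hba-a1 and Hba-a2 are 95.8% identical, so their reads may be shared. For Rux over CON the highest of 1751 genes were Pla2g7, Hba-a2, Calca, Hba-a1, Hpcal1, Hbb-bs, Capn2, Edil3, Dot1l and Creb3l2, and the lowest Id3 (−3.97), Socs3 (−2.67), Pomgnt1 (−2.59), Ifitm3 (−2.38), Dst, Tuba1b, Ugcg, Cd9, Srsf2 and Nasp. In CON 15 of the 33 UMIs of Pomgnt1 and 11 of the 23 of Cd9 lay in 1 member each. The ratio for Rux over CON was −0.0039 for Id3 and −0.21 for Edil3 when cells with Pdgfra or Krt5 were let in.

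Pla2g7 and Calca had no UMI in CON and were found in both irradiated libraries. Pla2g7, the hydrolase that inactivates platelet-activating factor, had 0, 58 and 152 UMIs, spread over 37 members of UV and 56 of Rux. Taking CON at 3 UMIs, it was at least 3.15-fold higher in UV and at least 5.69-fold higher in Rux. The exact intervals over CON, which also cover the counting error of UV and Rux, began lower, at 1.31 and 2.19 on the log2 scale. Calca had 0, 39 and 129 UMIs in 0, 14 and 34 members, at least 2.12-fold and 4.83-fold higher on the same terms, with intervals that began at 0.72 and 1.95. When cells with Pdgfra or Krt5 were let in, Pla2g7 had 2, 84 and 194 UMIs and Calca 3, 61 and 151. At 500 UMIs per cell Pla2g7 was expected in 0%, 7.43% and 8.54% of members, 10.5%, 14.3% and 26.0% of macrophage-like cells and at most 0.282% of fibroblast-like cells. Calca was expected in 0%, 3.26% and 7.54% of members and in at most 0.0321% of macrophage-like cells. Without thinning Pla2g7 was found in 0%, 21.8% and 29.6% of members, and Calca in 0%, 8.24% and 18.0%.

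For 8 genes the levels of other classes were set beside those of mast cells. Tpsb2 reached at most 11.7 CPM, Fcer1a 1.11 and Gata2 2.78 in macrophage-like, T-cell-like and fibroblast-like cells of any library. Il1rl1, also a gene of regulatory and type 2 T cells, had 30.3, 207 and 90.1 CPM in T-cell-like cells, with UV highest, and 4.10, 26.1 and 49.1 in fibroblast-like cells, in the same order as in mast cells. Socs3 stood at 353, 283 and 302 CPM in macrophage-like cells and at 967, 473 and 137 in fibroblast-like cells, in the order CON, UV, Rux as in mast cells. Id3 had 1767, 812 and 800 CPM and Fos 3535, 1810 and 1913 in fibroblast-like cells, with CON highest in both as in mast cells (621, 114 and 39.4 for Id3). The fibroblast list reached 988, 1617 and 1238 CPM in members, so fibroblast transcripts were present in members, and their part in Socs3, Id3 and Fos was not tested.

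**Figure D5:**
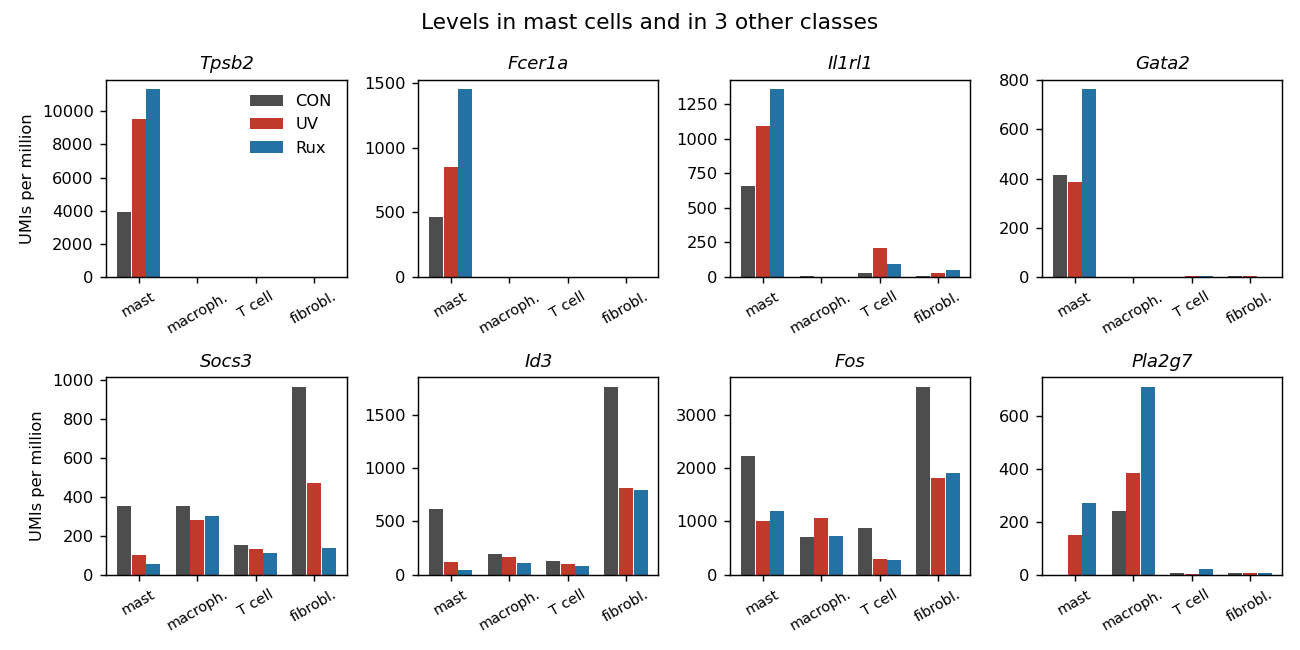
CPM of 8 genes in mast cells and in macrophage-like, T-cell-like and fibroblast-like cells, with 1 bar per library (CON grey, UV red, Rux blue). Socs3, Id3 and Fos are highest in CON in mast cells and in fibroblast-like cells, and Tpsb2, Fcer1a and Gata2 are far higher in mast cells than in the other 3 classes.

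Markers of other lineages in members were counted for 14 lists. The 6 fibroblast genes, with Dcn most abundant, had 62, 622 and 692 UMIs, which is 14.3%, 14.8% and 8.43% of the level in other cells. The 6 keratinocyte genes, with Krt14 most abundant, had 446, 179 and 190 CPM. The 6 neutrophil genes had 15.9, 5.20 and 259 CPM, of which S100a9 gave 96 of 145 UMIs in Rux, 81 of them in 1 member. The 7 macrophage genes had 47.8, 2.60 and 125 CPM, with Lyz2 most abundant in Rux at 21 UMIs, 19 of them in 1 member. The 4 erythroid genes had 15.9, 80.6 and 741 CPM, and the 5 pericyte genes 621, 439 and 50.1. The 7 dendritic cell genes had 255, 23.4 and 71.5 CPM, with Cd74 most abundant, the 5 endothelial genes 239, 75.4 and 30.4, the 5 melanocyte genes 63.7, 169 and 30.4, the 4 Schwann cell genes 15.9, 36.4 and 53.7, and the 6 T-cell genes 0, 7.80 and 7.15. The basophil list (1131, 1594 and 2338 CPM) was led by Fcer1a and the ILC2 list (844, 1326 and 1592) by Il1rl1, genes that mast cells carry, and the eosinophil list had 15.9, 7.80 and 16.1 CPM, all of it Il5ra. Over 12 of the 14 lists, members with at least 2 UMIs in at least 2 markers of another lineage numbered 4 of 49, 18 of 170 and 16 of 189. Their median depths were 2998, 1924.5 and 7587 UMIs. The basophil list, in which 3, 28 and 51 members met that mark, was not among the 12. The part of the members counted over the 12 lists was not tested beyond the values without them, and no doublet caller was run.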

How the data were processed

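Single-cell 3′ libraries of mouse dorsal skin were measured as 1 library each of CON, UV and Rux. The authors deposited filtered matrices of raw UMI counts per gene and barcode. The matrix headers name Cell Ranger 7.0.0, the submitters' processing notes Cell Ranger 6.1.2, Seurat 5.3.0 and build mm10. Barcodes held at least 500 UMIs. Cells with 200 or more genes and up to 10% mitochondrial UMIs were kept, which left 12046 of 13170, 11359 of 12411 and 10222 of 11287. Member counts were summed per library and scaled to CPM. Intervals (95%; Clopper-Pearson, Poisson, conditional binomial) cover counting error only, and the steps were checked on simulated data. Because each condition has 1 library, no test across libraries was possible.

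Members, gene lists and alternatives were chosen with earlier results of these data known, and the ribosomal list was added after the others. Genes were named from the lists, from the 10 highest and 10 lowest ratios of each of 3 comparisons (at least 100 CPM on average and 50 UMIs together), and from the 20 genes with the highest ratio of mast over other cells. Macrophage-like cells carried at least 4 of 6 and T-cell-like cells at least 3 of 6 markers, and fibroblast-like cells at least 4 of 6 with Pdgfra. Shares of cells with a UMI were computed as expectations after thinning to 500 UMIs. Alternatives were other cell filters, rules on members, depths, scalings, weights and gene minima. Promoters and transcript sequences were taken from RefSeq and GENCODE M21 tables of GRCm38. Python 3.11.15, numpy 2.4.6, scipy 1.17.1, pandas 2.3.3 and matplotlib 3.10.9 were used.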

Additional observations from a re-analysis of the deposited data

Results flagged for a closer look

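Barcodes outside the filters on cells, which entered no comparison, also met the marker rule. There were 12 in UV and 7 in Rux, above the 3 found in CON, and all of them had more than 10% mitochondrial UMIs. They came from 1124 barcodes outside the filters in CON, 1052 in UV and 1065 in Rux.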

How the results depend on the processing

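No paired analysis was possible because each condition has 1 library. The share was lowest in CON under every alternative run, and UV and Rux traded places over cells with Ptprc and per macrophage-like or T-cell-like cell. Without the exclusion of Pdgfra and Krt5 the shares in CON, UV and Rux were 0.606%, 1.95% and 2.38%, after thinning to 2000 UMIs 0.0659%, 0.632% and 0.936%, in cells of at least 1000 UMIs 0.188%, 1.01% and 1.54%, and over cells with Ptprc 1.80%, 13.4% and 8.45%. The settings of 500 and 1000 UMIs and of Ptprc were chosen after seeing the data. Causes of the changes below were not tested.

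Counts of genes at least 2-fold higher and lower were 379 and 161 for UV over CON and 376 and 250 for Rux over CON with median-of-ratios scaling. With at least 4 markers 39 genes were lower in Rux than in UV. Without the exclusion 196 were lower in UV than in CON, 72 higher in Rux than in UV and 241 lower in Rux than in CON. With equal weight per cell 72 were higher and 106 lower in Rux than in UV.

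List medians without the exclusion were, for UV over CON, 0.054 (interferon), 0.077 (heat shock), 0.59 (cell cycle) and −0.13 (p53), for Rux over UV −0.50 (interferon), and for Rux over CON 0.48 (heat shock), 0.46 (cell cycle), −0.22 (p53) and 0.096 (ribosomal proteins). Lipid mediators had, for UV over CON, −0.067 in members of at least 1000 UMIs, 1.56 with the stricter cell filter (500 genes, 5% mitochondrial UMIs) and 1.20 with equal weight, and for Rux over CON 0.15, 1.62 and, without members with markers of another lineage, 1.35. Without those members the interferon median for Rux over CON was −1.14. With equal weight the glucocorticoid and clock list had 0.038 for UV over CON and 0.58 for Rux over UV.

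Named genes at least 2-fold apart changed sign as follows. With at least 4 markers, Rgs5 had −0.23 for UV over CON, and Cald1 0.034, Cxcl1 0.85 and Olfr1033 0.080 for Rux over UV. Without the exclusion, Cd9 had 0.048 and Pde4b 0.28 for UV over CON, Id3 0.41 for Rux over UV, and Arhgap6 −0.56, Btg2 0.030, Cd9 0.12, Edil3 −0.21, Igfbp7 1.10 and Mrgprx2 −0.015 for Rux over CON. Without members with markers of another lineage, Cxcl1 had −0.069 and Rgs5 −1.09 for UV over CON, Cxcl1 0.40, Hbb-bs −0.67 and Olfr1033 0.046 for Rux over UV, and Hbb-bs −0.070 for Rux over CON. Without the deepest member of each library, Cxcl1 had −0.036 for UV over CON and 0.072 for Rux over UV, and Olfr1033 0.12 for Rux over UV. With the stricter cell filter Tagln had 3.10 for UV over CON. Of 107 smaller ratios of named genes whose interval did not hold 0, 25 changed sign under at least 1 alternative, 19 of them without the exclusion. Among these were, for Rux over UV, Ptgs2 (−0.87 to 0.12), Mt1 (0.54 to −0.51) and Csf1 (0.51 to −0.36), and for UV over CON, Cd63 (0.47 to −0.49) and Mrgprx2 (0.84 to −0.077). With equal weight Mcpt4 had −0.079 for UV over CON.

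Over all alternatives the ratio of UV over CON ranged from 1.15 to 1.48 for Tpsb2, −2.12 to −1.19 for Tpsg1, 0.63 to 1.06 for Fcer1a, 0.48 to 0.97 for Il1rl1, −2.03 to −0.43 for Socs3 and −3.11 to −0.41 for Id3, and that of Rux over UV from 0.71 to 1.05 for Gata2, 0.49 to 0.79 for Fcer1a and −1.54 to 0.16 for Socs3. The 62764 UMIs of CON members limit every ratio over CON.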

Other observations

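Other genes of the Y chromosome were present in mast cells beside Ddx3y. Eif2s3y had 2 UMIs in CON, 20 in UV and 37 in Rux, and Uty 4, 43 and 34. In every 1000000 UMIs of all retained cells Ddx3y stood at 110, 116 and 122 and Xist at 0.116, 0.106 and 0.101.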
